A study of Mus musculus with 16 samples.

Results

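Sin3, CoREST and NCoR are multi-protein corepressors, and this account follows 9 genes that encode their subunits in cultured mouse cortical neurons. The genes were chosen by symbol. The rule used no measured values, but earlier results of these data were known when it was set. They are Sin3a, Sin3b and Sap30 of the Sin3 complex, Rcor1, Rcor2, Rcor3 and Kdm1a of the CoREST complex, and Ncor1 and Tbl1xr1 of the NCoR complex. All 9 had a row in both deposited count tables, which list 26371 genes for cultures at basal state and 55304 genes for silenced cultures, and all 9 passed the low-count filter in every comparison. The series asked how the nucleoporin Nup153, a protein of the nuclear pore, affects transcription in neurons, and its title ties the effect to the deacetylase HDAC1. Poly(A) RNA was sequenced from primary cortical neurons of C57/BL6 embryos taken on embryonic day 17.5 to 19.5, and 1 litter was pooled for each replicate. All cultures received an adeno-associated virus (AAV) with a short hairpin RNA on day 8 in vitro and were collected on day 13. The control hairpin is called shControl, and shNup153-1 and shNup153-2 are separate hairpins against Nup153. At basal state 4 shControl, 2 shNup153-1 and 2 shNup153-2 libraries were used, and 3 shControl and 3 shNup153-2 libraries came from silenced cultures. Silencing used tetrodotoxin (TTX) at 1 to 2 µM for 24 hours, which blocks sodium channels, and D-AP5 at 100 µM for the last 6 hours, which blocks NMDA receptors. No silenced culture carried shNup153-1.

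Corepressors do not bind DNA themselves. DNA-binding repressors bring them to promoters and enhancers, where their deacetylase and demethylase subunits remove marks of active chromatin. Sin3a and Sin3b are scaffolds that hold Hdac1 and Hdac2, and Sap30 is a small subunit that stabilises that contact. The Rcor proteins join the histone demethylase Kdm1a (LSD1) to Hdac1 and Hdac2, and in neurons the complex is best known as a partner of REST, the repressor of neuronal genes in other cell types. Ncor1 is the scaffold through which unliganded nuclear receptors recruit Hdac3, and Tbl1xr1 is a WD40-repeat subunit that helps to exchange it for coactivators.

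Groups were taken from the sample titles, because the description of the knockdown samples names the control virus. Total counts ranged from 26863535 to 56299817 per library. In the basal table the shNup153-1 columns leave register with the gene symbols in the lower part, so lines 1 to 16399 were used for that hairpin, and the members all lie within them, the lowest on line 11298. Nup153 stood at 52.9 to 94.5 CPM (counts scaled to a common library total) in basal shControl libraries, 17.1 and 28.0 in shNup153-1 libraries and 13.5 and 11.6 in shNup153-2 libraries, and at 52.1 to 64.2 against 9.38 to 13.4 in silenced cultures. Per the labels, RNA was sequenced only where knockdown sufficed. Neuronal markers summed to 4613 to 7678 CPM across all libraries, with none of 10 at 0. Microglial markers (3 of 8 usable) summed to at most 1.57 CPM and vascular and fibroblast markers (9 of 10) to at most 29.6. Oligodendrocyte-lineage markers (11 of 12 usable) summed to 786 and 787 CPM with shNup153-1 against 114 to 285 in basal shControl libraries. Markers of cycling cells and progenitors (12 of 12) were also higher with shNup153-1, at 1063 and 1100 CPM against 441 to 652, as were interneuron markers (10 of 10), at 1565 and 2335 against 788 to 1425. The part of these cells in the member values was not tested. Astrocyte markers (10 of 10) summed to 2451 to 2808 CPM in basal shNup153-2 libraries and 281 to 1552 in silenced ones, and interneuron markers to 1331 to 1386 against 519 to 601. In shControl libraries astrocyte markers summed to 603 to 2681 CPM at basal state and 277 to 1434 when silenced. Interneuron markers summed there to 788 to 1425 against 472 to 531. In bulk RNA, fewer cells of a type and less RNA per cell cannot be told apart.

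The first question was how abundant each subunit's transcript is. Levels between genes are given per kilobase of summed exon (RPKM), with CPM scaled by TMM factors over all 14 libraries. In basal shControl cultures Kdm1a was the highest at 28.4 ± 5.93 RPKM (SD, n = 4), followed by Ncor1 at 17.7 ± 4.67, Sin3b at 15.2 ± 0.908 and Sap30 at 11.3 ± 4.06. Sin3a stood at 8.50 ± 1.69 RPKM, Rcor1 at 5.69 ± 1.20 and Tbl1xr1 at 5.36 ± 2.46. The remaining CoREST scaffolds were lowest, Rcor2 at 3.05 ± 1.04 RPKM and Rcor3 at 1.35 ± 0.0801. Library values of each pair of neighbours in this order overlapped, except Rcor2 (2.06 to 4.50 RPKM) and Rcor3 (1.26 to 1.42). Sin3b was thus above its paralogue Sin3a in all 4 libraries. The demethylase Kdm1a was above every Rcor scaffold in all 14. Rcor3 has a summed exon length of 13622 bases, against 1178 for Sap30, and 8.34% of its exon bases also lie in genes of the opposite strand, so that its level per kilobase rests on which exons the annotation counts. That share was 3.96% for Sin3a, 0.648% for Ncor1 and 0 for the other members.

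**Figure D1:**
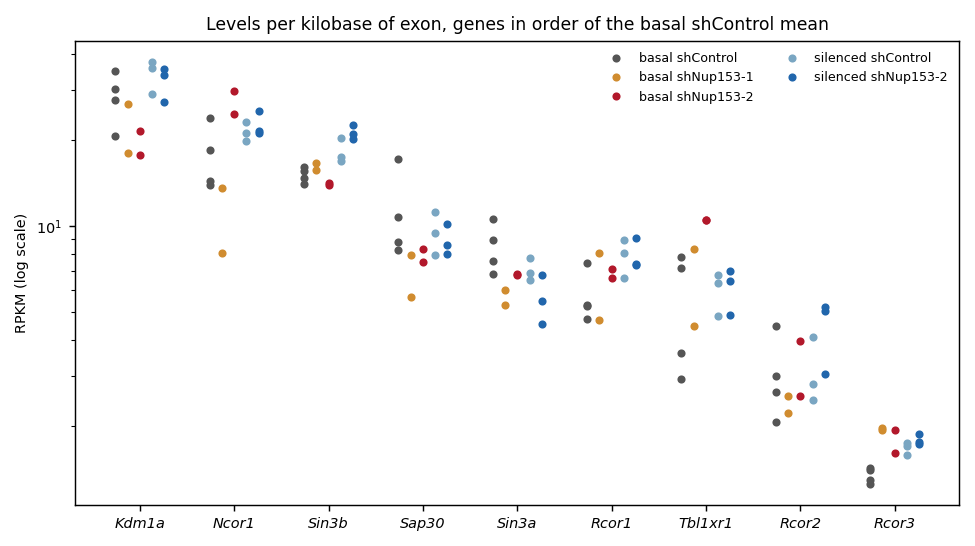
Levels of the 9 subunit genes in RPKM on a log axis, 1 point per library, coloured by group and ordered by the basal shControl mean. Kdm1a was at the top with 28.4 RPKM and Rcor3 at the bottom with 1.35, and neighbouring genes overlap between libraries except Rcor2 and Rcor3 in basal shControl cultures.

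Gene positions are given on mm10. Sin3a is at chr9:57072040-57128366 on the plus strand and Sin3b at chr8:72723285-72758201 on the plus strand, while Sap30 is at chr8:57482707-57487860 on the minus strand. Rcor1 is at chr12:111039351-111115901 (plus), Rcor2 at chr19:7267325-7275225 (plus), Rcor3 at chr1:192098546-192138062 (minus) and Kdm1a at chr4:136550540-136602723 (minus). Ncor1 is at chr11:62316426-62458541 (minus) and Tbl1xr1 at chr3:22076652-22216594 (plus). The 250 bases before the start (RefSeq, GRCm38.p6) are shown for Sin3b and Kdm1a because these 2 members passed a test given below. Capitals mark matches to 4 motifs, on either strand, that were chosen after the expression results were seen: the cAMP response element half-site TGACG, the GC box GGGCGG, the E-box CACGTG and the NRF1 site, which is GCGCA followed by its reverse complement.
Sin3b, chr8:72723020-72723269, plus strand: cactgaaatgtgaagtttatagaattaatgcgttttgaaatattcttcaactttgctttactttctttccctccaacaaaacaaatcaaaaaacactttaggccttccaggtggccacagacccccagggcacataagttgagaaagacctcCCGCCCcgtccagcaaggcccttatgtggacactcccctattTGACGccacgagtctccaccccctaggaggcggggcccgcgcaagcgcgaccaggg
Kdm1a, chr4:136602724-136602973, minus strand: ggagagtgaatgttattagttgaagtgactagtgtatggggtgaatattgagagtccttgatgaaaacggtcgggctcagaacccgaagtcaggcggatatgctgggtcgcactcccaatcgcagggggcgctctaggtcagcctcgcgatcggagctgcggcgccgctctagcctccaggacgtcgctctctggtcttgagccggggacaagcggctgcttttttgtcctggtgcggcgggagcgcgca
The Sin3b window holds 1 GC box and 1 half-site and is 50.8% G or C. The Kdm1a window, 59.2% G or C, holds none of the 4 strings. Among the 9 members, 8 had a GC box, against 32.7% of 32851 RefSeq promoter windows of this length, and 3 had the half-site, against 17.8%. The E-box was found for 1 member (6.02% of windows) and the NRF1 site for 0 (0.782%). A member counted if any of its windows matched, and Sin3a and Ncor1 have more than 1 window. The shares are over single windows, so the measures are not alike. These are matches of letters, not binding sites.

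Among the Sin3 subunits, Sin3a was lowest with shNup153-1 at basal state. Its level was 57.3, 40.8, 48.3 and 36.6 CPM in basal shControl replicates 1 to 4, 28.5 and 32.4 with shNup153-1, 36.6 and 36.3 with shNup153-2, 37.0, 41.9 and 34.9 in silenced shControl cultures and 29.5, 36.3 and 24.5 in silenced shNup153-2 cultures. Both shNup153-1 libraries lay below all 4 controls, whereas the shNup153-2 libraries touched the lowest control. Groups did not overlap for 36.1% of all genes with shNup153-1 and for 46.3% with shNup153-2. Its paralogue Sin3b stayed in a narrow basal band, at 108.7, 103.7, 114.8 and 118.8 CPM with shControl, 122.4 and 116.2 in the shNup153-1 pair and 102.5 and 104.4 in the shNup153-2 pair. In silenced cultures Sin3b was at 128.5, 149.9 and 125.0 CPM with shControl and 148.3, 154.9 and 166.8 with shNup153-2. All 6 silenced values were above all 8 basal ones. Between the states, groups did not overlap for 23.6% of all genes with shControl and for 67.3% with shNup153-2. Sap30, the small stabilising subunit, stood at 20.2, 12.7, 9.77 and 10.4 CPM in basal shControl libraries, so that replicate 1 alone spread the group. It was at 9.38 and 6.67 CPM with shNup153-1 and 9.83 and 8.84 with shNup153-2, and between 9.38 and 13.2 in the 6 silenced libraries.

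Of the CoREST subunits, the scaffold Rcor1 was at 42.3, 26.9, 30.2 and 30.0 CPM in basal shControl libraries, 26.8 and 46.0 with shNup153-1 and 40.4 and 37.6 with shNup153-2. The shNup153-1 pair spanned the whole control range. Silenced cultures had 50.8, 37.6 and 45.8 CPM of Rcor1 with shControl and 51.7, 42.0 and 41.7 with shNup153-2. Rcor2, a neural paralogue, was between 6.50 and 16.4 CPM in all 14 libraries, and its groups overlapped widely. Rcor3, the least abundant paralogue per kilobase, was tight within groups: 19.1, 17.1, 19.4 and 17.7 CPM with basal shControl, 26.8 and 26.4 in the shNup153-1 pair and 26.5 and 21.96 in the shNup153-2 pair. All 4 basal knockdown libraries lay above the controls. The silenced libraries, at 23.1, 21.5 and 23.8 with shControl and 23.7, 24.0 and 25.5 with shNup153-2, also lay above them. Against basal shControl, groups did not overlap for 36.1% of all genes with shNup153-1, 46.3% with shNup153-2 and 23.6% with silenced shControl. The demethylase Kdm1a was at 143.6, 180.8, 107.2 and 156.6 CPM with basal shControl, 138.7 and 93.8 in the shNup153-1 pair and 111.8 and 92.2 in the shNup153-2 pair. Its silenced values were 195.0, 150.4 and 184.8 CPM with shControl and 184.1, 140.9 and 175.7 with shNup153-2. The lowest silenced library was thus above both basal shNup153-2 libraries, while the shControl groups of the 2 states overlapped. In shNup153-2 cultures the 2 states did not overlap for 67.3% of all genes.

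The NCoR scaffold Ncor1 was at 307.8, 179.1, 236.1 and 184.4 CPM in basal shControl libraries, 103.3 and 174.0 in the shNup153-1 pair and 382.4 and 316.9 in the shNup153-2 pair. The control libraries thus lay between the hairpins without overlap. Between the hairpins, groups did not overlap for 63.3% of all genes. Against shControl the share was 36.1% with shNup153-1 and 46.3% with shNup153-2. Silenced cultures had 296.7, 255.9 and 271.1 CPM with shControl and 324.4, 275.4 and 272.3 with shNup153-2. Tbl1xr1 was at 69.3, 26.0, 63.6 and 32.03 CPM in basal shControl libraries, 39.8 and 74.4 with shNup153-1 and 93.4 and 94.1 with shNup153-2. Silenced cultures ranged from 43.3 to 62.0 CPM in both groups. For both genes shControl replicates 1 and 3 were higher than replicates 2 and 4. The same libraries differed in how transcripts of different length were represented. Spearman's rho across genes between exon length and a library's deviation from the mean was 0.32 and 0.16 in replicates 1 and 3 and -0.29 and -0.22 in replicates 2 and 4. Basal shNup153-2 libraries were at 0.24 and 0.15. Astrocyte marker sums were also higher in shControl replicates 1 and 3 (2681 and 1801 CPM) than in replicates 2 and 4 (602.6 and 1362). Interneuron marker sums were lower there (914.2 and 787.7 against 1405 and 1425). With shNup153-1 astrocyte markers summed to 1452 and 3226 CPM. Ncor1 and Tbl1xr1 have summed exon lengths of 12811 and 8903 bases. The part of transcript length or of these cells in their values was not tested by these descriptions. An alternative that removes the length trend in each library, added after seeing the data, is quoted beside each result whose call it changed.

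**Figure D2:**
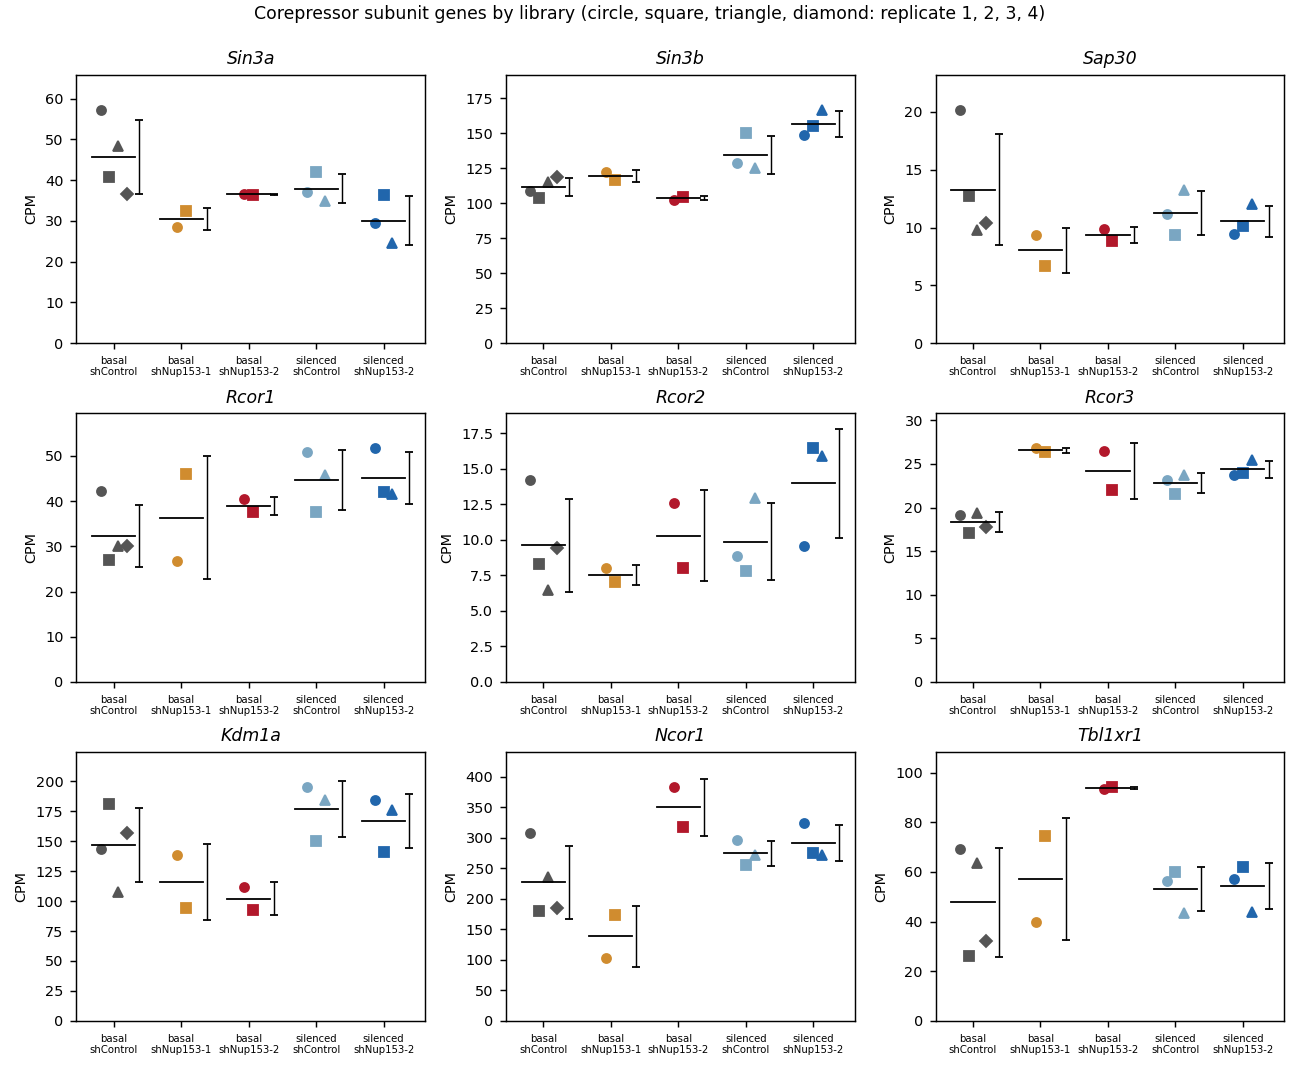
CPM of the 9 members in each library on linear axes from 0, with replicate number as the marker shape, a line at the group mean and a bar of 1 SD beside each group. Ncor1 lies at 316.9 and 382.4 CPM with shNup153-2 and at 103.3 and 174.0 with shNup153-1, and the 6 silenced Sin3b values lie above the 8 basal ones.

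Next, knockdown was compared with shControl at basal state. None of the 9 subunits passed a false discovery rate (FDR) of 0.05 with shNup153-1 or with shNup153-2. With shNup153-1 the edgeR quasi-likelihood test called 0 of 9, against 13.6% of all genes tested. An unadjusted p under 0.05 was found for 4 members and for 4284 of 14529 genes. DESeq2 called 1 member and 3146 genes, and limma-voom 0 members and 1908 genes. With shNup153-2 edgeR called 0 of 9, against 9.55% of all genes. Here 2 members and 5680 of 19682 genes had an unadjusted p under 0.05. DESeq2 called 0 members and 3624 genes, and limma-voom 0 members and 1998 genes. The median log2 fold change of the members was -0.36 with shNup153-1 and 0.07 with shNup153-2, beside -0.02 and -0.03 over all genes. The 2 comparisons share their 4 control libraries. Groups did not overlap for 4 of 9 members with shNup153-1, against 36.1% of genes, and for 3 of 9 with shNup153-2, against 46.3%.

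The members nearest to the threshold with shNup153-1 were Rcor3, Sin3a and Ncor1. The log2 fold change of Rcor3 was 0.51 (SE 0.16, 95% interval 0.14 to 0.88, edgeR adjusted p = 0.0723), and DESeq2 called it at 0.53 (adjusted p = 0.0156). Sin3a was at -0.61 (SE 0.21, interval -1.09 to -0.13, edgeR adjusted p = 0.0918). The Ncor1 value was -0.73 (SE 0.30, interval -1.43 to -0.04, edgeR adjusted p = 0.146), and with the length trend removed it was -0.62 and passed (edgeR adjusted p = 0.0349). Sap30 was at -0.75 with the widest interval of the Sin3 subunits, -1.51 to 0 (edgeR adjusted p = 0.170). Kdm1a (-0.36), Rcor2 (-0.38), Tbl1xr1 (0.23), Rcor1 (0.15) and Sin3b (0.07) had intervals that included 0.

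With shNup153-2 the NCoR subunits had the largest positive values. Tbl1xr1 was at 0.95 (SE 0.38, interval 0.08 to 1.81, edgeR adjusted p = 0.145) and Ncor1 at 0.60 (SE 0.25, interval 0.01 to 1.18, edgeR adjusted p = 0.167). Kdm1a at -0.56 (interval -1.14 to 0.01) and Sap30 at -0.54 (interval -1.28 to 0.21) were the most negative. Rcor3 was at 0.37 (interval -0.03 to 0.77), and 0.00 with the length trend removed. Sin3a was at -0.36, Rcor1 at 0.24, Sin3b at -0.14 and Rcor2 at 0.07, all with intervals that included 0. Intervals of this width do not show that a subunit was unaffected: for Sin3b the interval with shNup153-2 ran from -0.52 to 0.24, but for Rcor2 it ran from -0.72 to 0.86.

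**Figure D3:**
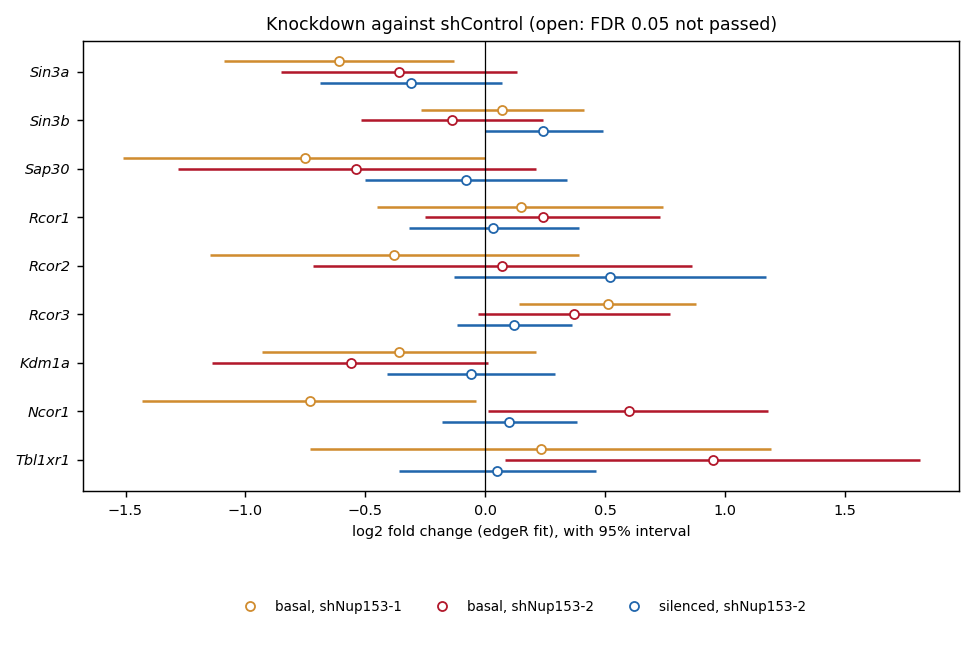
Log2 fold change of each member for knockdown against shControl with its 95% interval from the edgeR fit, at basal state with either hairpin and in silenced cultures with shNup153-2. Points are open because none passed an FDR of 0.05, and Ncor1 lies at -0.73 with shNup153-1 and 0.60 with shNup153-2.

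The hairpins were then compared with each other. Ncor1 was higher with shNup153-2 than with shNup153-1 by 1.33 on the log2 scale (SE 0.35, interval 0.54 to 2.11), with an edgeR adjusted p of 0.0656. DESeq2 called it at 1.31 (adjusted p = 0.0051). With the length trend removed it was 0.90 and passed (edgeR adjusted p = 0.0304). Across all genes, this contrast had a Spearman's rho of 0.31 with exon length. Ncor1 was the only member with an unadjusted p under 0.05, beside 3747 of 14529 genes. EdgeR called 0 of 9 members, against 4.48% of genes. DESeq2 called 1 member and 2114 genes, and limma-voom 0 members and 679 genes. Groups did not overlap for 5 of 9, against 63.3% of genes. Tbl1xr1 was at 0.70 (interval -0.42 to 1.83), Rcor2 at 0.45 and Sin3a at 0.25, and the other members between -0.21 and 0.21. Oligodendrocyte-lineage markers fell in this contrast for 4 of 11 tested, with a median of -2.87, and their part in the member values was not tested.

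In silenced cultures, knockdown with shNup153-2 left all 9 subunits short of the threshold in the fit without a replicate block. Their intervals were narrower than at basal state. EdgeR, DESeq2 and limma-voom each called 0 of 9, against 3.45% of genes called by edgeR. An unadjusted p under 0.05 was found for 0 members, against 3745 of 18965 genes. No member had groups that did not overlap, against 27.1% of genes. Ncor1 was at 0.10 (interval -0.18 to 0.38), Kdm1a at -0.06 (-0.41 to 0.29) and Rcor3 at 0.12 (-0.12 to 0.36). Tbl1xr1 at 0.05 (-0.36 to 0.46), Rcor1 at 0.03 (-0.32 to 0.39) and Sap30 at -0.08 (-0.50 to 0.34) were likewise centred near 0. Rcor2 was the largest at 0.52, with an interval of -0.13 to 1.17. Sin3b was at 0.24 (interval 0 to 0.49, edgeR adjusted p = 0.258) and Sin3a at -0.31 (interval -0.69 to 0.07, edgeR adjusted p = 0.347). With replicate number as a block, Sin3a fell by 0.33 on the log2 scale and passed (edgeR adjusted p = 0.0398), in a fit that called 4161 genes, or 21.9%, rather than 654. In that edgeR fit 3 members had an unadjusted p under 0.05, beside 6756 of 18965 genes.

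Silencing itself was the third question, asked within each hairpin. The states were deposited as separate tables, so state and table cannot be told apart. In shControl cultures none of the 9 subunits was called by edgeR, DESeq2 or limma-voom, against 12.4% of genes called by edgeR. Of all genes, 5859 of 20926 had an unadjusted p under 0.05, and of the members 1 did. That member was Rcor1 at 0.41 (SE 0.18, interval 0.03 to 0.80, edgeR adjusted p = 0.148). Without basal shControl replicate 1, which holds the highest of the 4 basal Rcor1 values, it was 0.59 and passed (edgeR adjusted p = 0.0302). With the length trend removed, Rcor1 at 0.54 (edgeR adjusted p = 0.0361) and Ncor1 at 0.43 (edgeR adjusted p = 0.038) passed. In the fit without that correction Ncor1 was at 0.22. Rcor3 was at 0.26 (interval 0 to 0.52), Sin3b at 0.22 (-0.03 to 0.46) and Kdm1a at 0.21 (-0.19 to 0.61). Sin3a at -0.33 and Sap30 at -0.29 were lower, and Tbl1xr1 (0.10) and Rcor2 (-0.02) were near 0. For 2 of 9 members, Sin3b and Rcor3, the groups did not overlap, against 23.6% of genes. Interneuron markers fell for 6 of 10 and rose for 0 (median -1.10), against 12.4% of all genes called. Astrocyte markers fell for 1 of 10 and rose for 0 (median -1.12). The part of these cells in the member values was not tested.

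In shNup153-2 cultures 2 of the 9 subunits, the scaffold Sin3b and the demethylase Kdm1a, rose with silencing. Sin3b rose by 0.57 on the log2 scale (SE 0.14, interval 0.27 to 0.86, edgeR adjusted p = 0.016), from 103.5 ± 1.34 CPM (SD, n = 2) to 156.7 ± 9.38 (SD, n = 3). Kdm1a rose by 0.68 (SE 0.22, interval 0.19 to 1.17, edgeR adjusted p = 0.0494), from 102.0 ± 13.9 CPM (SD, n = 2) to 166.9 ± 22.9 (SD, n = 3). Their promoter windows are those printed above. EdgeR called 21.7% of all genes in this comparison, a share near that of the members. DESeq2 and limma-voom also called 2 members each, beside 5974 and 4983 of 20926 genes. Sin3b lost its call without basal shNup153-2 replicate 1 or 2 or silenced shNup153-2 replicate 3 (edgeR adjusted p = 0.116, 0.102 and 0.0577). Kdm1a lost its call without any of these (0.130, 0.243 and 0.122) and without silenced shNup153-2 replicate 1 (0.131). A fit with replicate number as a block across the 2 states, which holds only numbers 1 and 2, called neither (Sin3b edgeR adjusted p = 0.0819, Kdm1a 0.119), and the labels do not tie those numbers to a litter. With the length trend removed both were at 0.95 and passed, beside a median of 0.18 over all genes.

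The other subunits did not pass. Tbl1xr1 had the most negative value, -0.82 (SE 0.36, interval -1.60 to -0.04, edgeR adjusted p = 0.110), and a fit of only the 2 groups called it at -0.81 (edgeR adjusted p = 0.0121). Its silenced libraries, from 43.8 to 62.0 CPM, were all below the basal pair at 93.4 and 94.1. Ncor1 was at -0.30 (interval -0.80 to 0.20) and Rcor3 at -0.03 (interval -0.34 to 0.29). Both values moved when the length trend was removed, and this contrast had a Spearman's rho of -0.28 with exon length. In that fit Ncor1 was at 0.29 and Rcor3 rose by 0.59 (edgeR adjusted p = 0.0385), while the median over all genes moved to 0.18. Rcor2 was at 0.40, Rcor1 at 0.18, Sap30 at 0.14 and Sin3a at -0.31, with intervals that included 0. Groups did not overlap for 5 of 9 members, against 67.3% of genes. Astrocyte and interneuron marker sums were lower in these silenced libraries, as given above, and interneuron sums were also lower in silenced shControl libraries. Single markers of other cells rose in the same comparison, in which 21.7% of all genes were called. For cycling cells and progenitors 6 of 12 rose and 1 fell (median 0.95), and the rises included Mki67 at 5.52, Cdk1 at 4.60 and Ccnb1 at 4.52. In the oligodendrocyte lineage 5 of 12 rose and 1 fell (median 1.93). The summed level of the cycling markers was 581 and 945 CPM in the basal shNup153-2 pair and 198 to 630 in the silenced libraries. That of the oligodendrocyte lineage was 254 and 382 CPM in the pair and 148 to 589 in the silenced libraries, which overlap. In shControl cultures 4 of 12 cycling and progenitor markers and 3 of 12 oligodendrocyte-lineage markers rose and 0 fell, against 12.4% of all genes called. The part of these cells in the values of the members and of the deacetylases was not tested.

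Whether the effect of shNup153-2 differed between states was tested as an interaction. EdgeR called 0 of 20926 genes, or 0%, and 0 of 9 members, with 2393 genes and 0 members at an unadjusted p under 0.05. DESeq2 called 283 genes and limma-voom 1, and neither called a member. The rise of Sin3b and Kdm1a in shNup153-2 cultures is therefore not shown to differ from the change in shControl cultures. The difference was 0.35 for Sin3b (SE 0.18, interval -0.03 to 0.73, edgeR adjusted p = 0.469) and 0.46 for Kdm1a (SE 0.29, interval -0.16 to 1.09, edgeR adjusted p = 0.525). The most negative differences were those of the NCoR subunits, Tbl1xr1 at -0.92 (interval -1.94 to 0.10) and Ncor1 at -0.52 (interval -1.17 to 0.13). Rcor3 was at -0.29, Rcor1 at -0.24, Sap30 at 0.43, Rcor2 at 0.42 and Sin3a at 0.01, each with an interval that included 0.

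**Figure D4:**
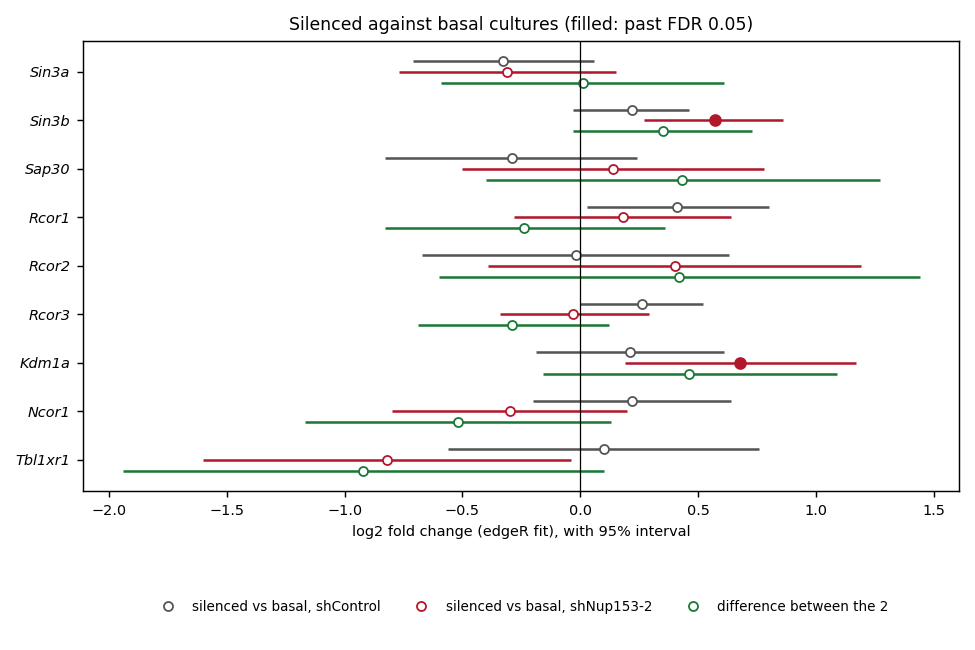
Log2 fold change of each member for silenced against basal cultures with its 95% interval from the edgeR fit, in shControl cultures, in shNup153-2 cultures, and as the difference between the 2. Filled points passed an FDR of 0.05, which were Sin3b at 0.57 and Kdm1a at 0.68 in shNup153-2 cultures.

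Of the 3 deacetylases that these scaffolds carry, Hdac2 fell with both hairpins at basal state and Hdac3 with shNup153-1. Hdac2, which sits in both Sin3 and CoREST, was at 151.0 to 227.6 CPM in basal shControl libraries, 71.2 and 60.4 with shNup153-1 and 101.6 and 87.3 with shNup153-2. It fell by 1.51 on the log2 scale with shNup153-1 (SE 0.22, edgeR adjusted p = 0.00524) and by 1.00 with shNup153-2 (SE 0.24, edgeR adjusted p = 0.039). Hdac3, the deacetylase of NCoR, fell by 0.99 with shNup153-1 (SE 0.25, edgeR adjusted p = 0.0329) and was at -0.52 with shNup153-2 (edgeR adjusted p = 0.211). Hdac1 did not pass with either hairpin (-0.29 and -0.45). In shNup153-2 cultures Hdac2 rose by 0.88 (SE 0.20, edgeR adjusted p = 0.0139) and Hdac1 by 0.76 (SE 0.19, edgeR adjusted p = 0.0184) with silencing, the comparison in which Sin3b and Kdm1a rose. That rise shares the 2 basal libraries in which Hdac2 was low. In shControl cultures Hdac2 was at 0.25 (edgeR adjusted p = 0.357) and Hdac1 at 0.44 (0.0873) with silencing, and the interaction was 0.63 for Hdac2 (0.398) and 0.32 for Hdac1 (0.595), so that no difference between hairpins was shown. In silenced cultures Hdac2 was at -0.33 with shNup153-2 (edgeR adjusted p = 0.250). With the replicate block it fell by 0.34 on the log2 scale and passed (SE 0.07, edgeR adjusted p = 0.0136), from 233.6 to 179.2 CPM in replicate 1, 202.9 to 151.2 in replicate 2 and 246.3 to 203.9 in replicate 3. The basal Hdac2 call with shNup153-2 was lost without shControl replicate 4 or either knockdown library (edgeR adjusted p = 0.103, 0.247 and 0.297). Hdac3 lost its call without shControl replicate 2 or 4 (0.0546 and 0.0861) or shNup153-1 replicate 1 or 2 (0.0992 and 0.160), and under silencing Hdac2 and Hdac1 lost theirs without basal shNup153-2 replicate 1 (0.0704 and 0.119) or 2 (0.112 and 0.110) or silenced replicate 3 (0.0503 and 0.0533), and with replicate number as a block across states (0.0883 and 0.0777).

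Among 7 other NCoR genes tested at basal state, 1 rose and 2 fell with shNup153-1, against 13.6% of all genes called. With shNup153-2, 2 rose and 0 fell, against 9.55%. In silenced cultures 1 rose and 0 fell with shNup153-2, against 3.45%. Not every gene of this list that was called with both hairpins changed direction between them. Coro2a, a coronin found with NCoR, went in opposite directions with the hairpins. It fell by 1.18 with shNup153-1 (SE 0.29, edgeR adjusted p = 0.0335) and rose by 1.00 with shNup153-2 (SE 0.25, edgeR adjusted p = 0.0422), and the difference of 2.18 passed (SE 0.33, edgeR adjusted p = 0.0145). Coro2a stood at 18.0 to 27.4 CPM in basal shControl libraries, 8.32 and 13.5 with shNup153-1 and 60.2 and 39.3 with shNup153-2, the same order as Ncor1. Its fall was lost without shControl replicate 1 or 4 (edgeR adjusted p = 0.0657 and 0.0734) or shNup153-1 replicate 1 (0.206). The rise was lost without shControl replicate 3 or 4 (0.0596 and 0.105) or shNup153-2 replicate 1 or 2 (0.394 and 0.126), and with the length trend removed (0.79, edgeR adjusted p = 0.0939). The difference was lost without shNup153-2 replicate 1 or 2 (0.152 and 0.0782) or shNup153-1 replicate 1 (0.125). Tbl1x, the X-linked paralogue of Tbl1xr1, fell by 0.64 with silencing in shNup153-2 cultures (SE 0.16, edgeR adjusted p = 0.0178), the 1 gene called there of the list of other NCoR genes. That call was lost without basal shNup153-2 replicate 1 or 2 (0.112 and 0.104) or silenced replicate 3 (0.0586), and with the length trend removed (-0.29, edgeR adjusted p = 0.103).

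**Figure D5:**
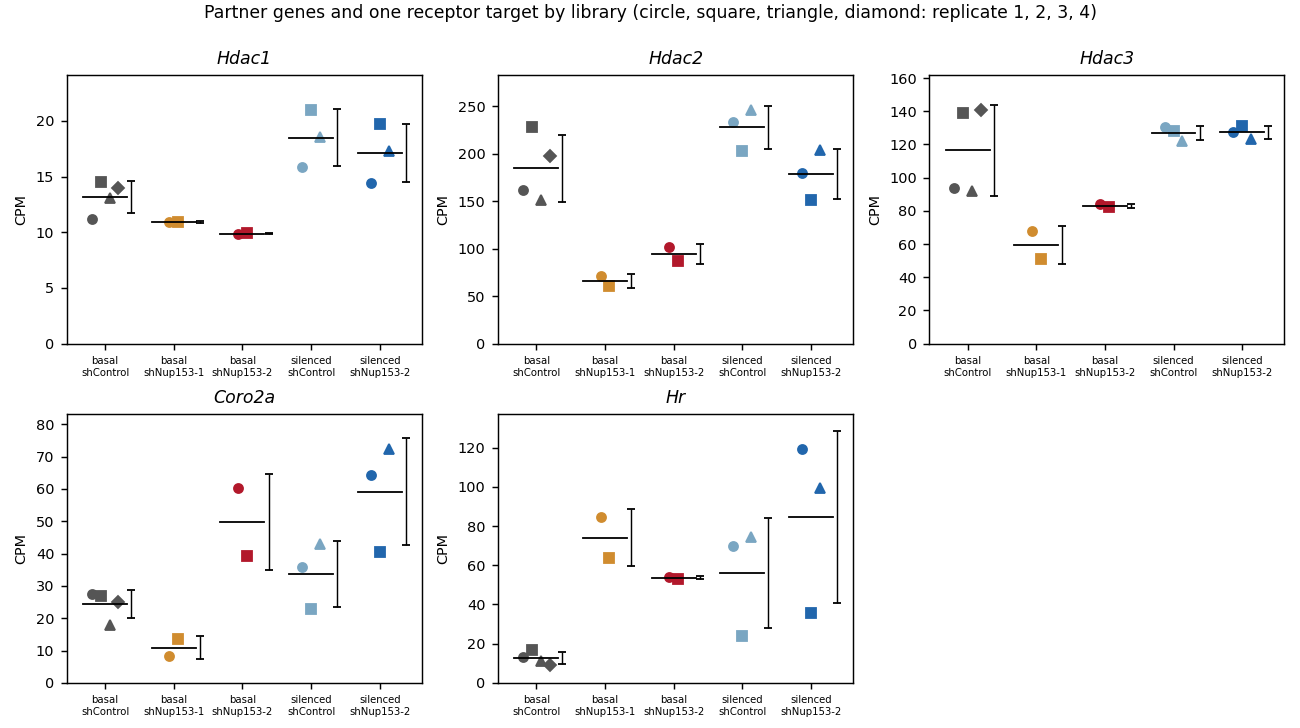
CPM of the deacetylases Hdac1, Hdac2 and Hdac3, the NCoR gene Coro2a and the receptor-regulated gene Hr in each library, on linear axes from 0 with group means and bars of 1 SD. These 5 panels were chosen after the values were seen. Hdac2 lies at 60.4 to 101.6 CPM in the 4 basal knockdown libraries against 151.0 to 227.6 in their controls, and Coro2a at 8.32 and 13.5 with shNup153-1 against 60.2 and 39.3 with shNup153-2.

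Of 18 other Sin3 genes tested at basal state, 1 fell with shNup153-1 (Hdac2), against 13.6% of all genes called, and 2 fell with shNup153-2, against 9.55%. These counts are near the share over all genes. The second gene lower with shNup153-2 was Ing1, a reader of histone methylation, which fell by 1.37 (SE 0.32, edgeR adjusted p = 0.0358). Its call was lost without shControl replicate 4 or shNup153-2 replicate 1 or 2 (0.0898, 0.253 and 0.251). Of 12 other CoREST genes, which share Hdac1 and Hdac2 with the Sin3 list, 2 fell with shNup153-1 (Hdac2 and the corepressor Ctbp2, -0.78, edgeR adjusted p = 0.0199) and 1 with shNup153-2 (Hdac2). Ctbp2 lost its call without shControl replicate 4 or shNup153-1 replicate 1 or 2 (0.0619, 0.122 and 0.0838). The list medians were -0.07 and -0.39 for Sin3 genes and -0.28 and -0.21 for CoREST genes with shNup153-1 and shNup153-2, beside -0.02 and -0.03 over all genes. Sap18, a small Sin3 subunit, was lower with shNup153-2 than with shNup153-1 by -1.30 (SE 0.26, edgeR adjusted p = 0.0342), and it lost that call without shNup153-2 replicate 1 or 2 or shNup153-1 replicate 1 (0.256, 0.196 and 0.216).

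In silenced cultures the counts with shNup153-2 depended on the replicate block. Without it 0 of 18 other Sin3 genes and 0 of 12 CoREST genes passed the edgeR test. An unadjusted p under 0.05 was found for 6 and 2 of them, beside 3745 of 18965 genes. With the block, which called 21.9% of all genes, 4 Sin3 genes fell and 2 rose. Those that fell were Sinhcaf (-2.46, SE 0.36, edgeR adjusted p = 0.00434), Sap18 (-0.42, SE 0.08, edgeR adjusted p = 0.0136), Hdac2 and Phf12 (-0.33, SE 0.08, edgeR adjusted p = 0.0221). Sap130 (0.28) and Ing2 (0.31) rose (edgeR adjusted p = 0.0347 and 0.0353). Of the CoREST genes 3 fell and 0 rose, namely Hdac2, Zmym3 (-0.35, edgeR adjusted p = 0.0145) and Zfp217 (-0.79, edgeR adjusted p = 0.0337). The list counts with the block, and the genes named from them, were chosen after the values were seen.

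With silencing the called genes of the Sin3 list rose, in numbers near the share over all genes. In shNup153-2 cultures 5 of 19 other Sin3 genes rose and 0 fell, and 2 of the 9 members rose, against 21.7% of all genes called in either direction. Ing1 rose by 1.31 (SE 0.26, edgeR adjusted p = 0.00713), from 25.8 and 24.3 CPM to 62.0, 63.2 and 65.1, the opposite sign to its fall with shNup153-2 at basal state, a comparison that shares those 2 basal libraries. Ing1 lost its rise without either of them (0.0598 and 0.0667). In shControl cultures 2 of 19 other Sin3 genes rose and 0 fell, against 12.4% of all genes. They were Arid4a, a chromodomain protein (0.69, SE 0.15, edgeR adjusted p = 0.0123), and Sap130 (0.52, SE 0.13, edgeR adjusted p = 0.0226). Gse1, a CoREST gene, rose by 0.63 (SE 0.19, edgeR adjusted p = 0.0494). Sap130 lost its call without silenced shControl replicate 1 or 3 (0.0851 and 0.0895), and Gse1 lost its call in 6 of the 7 fits without 1 library (highest edgeR adjusted p = 0.135), those without basal shControl replicate 2, 3 or 4 or any silenced shControl library.

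Over the 12 libraries without shNup153-1, the highest Pearson's r of log2 CPM between members was 0.86, between the NCoR subunits Ncor1 and Tbl1xr1. Within CoREST it was 0.73 between Rcor1 and Rcor3 and -0.09 between Rcor3 and Kdm1a, and within Sin3 it was -0.60 between Sin3a and Sin3b and 0.44 between Sin3a and Sap30. Across complexes it was 0.80 between Ncor1 and Rcor3 and -0.72 between Kdm1a and Tbl1xr1. These are descriptions over libraries that share state, hairpin and the length trend. By the same measure the genes most like Ncor1 were Setbp1 (0.9708), Arid1a (0.9697) and Tcf20 (0.9675). Those most like Rcor1 were Map4k4 (0.9588), Srgap3 (0.9535) and Trim2 (0.9435), and those most like Sin3a were Ak3l2-ps (0.9631), Ppp1r13l (0.9574) and Nr3c1 (0.9554).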

How the data were processed

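The submitters' processing notes name FastQC, featureCounts 2.0.1 and mm10, and the tables the authors deposited hold raw counts. Which aligner, annotation and strand setting they used was not given in the sources used here. Library preparation kept strand, per the labels. The 9 members and the gene lists were chosen with earlier results of these data known. Named were all members, Nup153, Hdac1, Hdac2 and Hdac3, up to 4 called genes with the smallest p of each list and comparison, and for Sin3a, Rcor1 and Ncor1 the 3 genes of highest Pearson r. From these, the text names a subset, and some listed genes are not reported here.

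Columns were compared down the basal table. The shNup153-1 columns were in register to line 16421 and off by 1 line beyond it. Lines up to 16399 were used, a margin of 22 lines set to match the stated rule. Across genes, the correlation with shControl was 0.9745 on the lines used and 0.0862 beyond, against 0.9702 beyond for shNup153-2. At basal state 2 columns share 1 name, could not be assigned to a sample and were not used.

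Counts were tested with edgeR 4.0.16 in R 4.3.3: filterByExpr with a minimum count of 10, TMM factors, the quasi-likelihood F test and Benjamini-Hochberg adjustment over all genes, threshold 0.05. SE is the absolute log2 fold change over the square root of F. The 3 basal groups were fitted together for shNup153-1. The basal shNup153-2 fit and the joint fit of both states left shNup153-1 out, so that displaced counts did not enter. P-values measure the spread between these libraries, each from 1 litter per the labels. Exon lengths came from GENCODE M21. Groups were called not overlapping on CPM over genes on the lines used. Scripts were tested on simulated data. Alternatives were RLE factors, no filter, DESeq2 1.42.0, limma-voom (limma 3.58.1), the replicate block, other sets of groups, each library left out, and removal of the length trend (loess, span 0.5), which was added after seeing the data. Correlations used log2 CPM with a prior count of 2.

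Same-numbered silenced libraries deviated together (r = 0.29, 0.57 and 0.62 across genes), while pairs of unlike number ranged from -0.59 to 0.06. Blocked values there are given above for Sin3a, the 1 member called, for Hdac2 and for the Sin3, CoREST and RE1 lists. Those of the other members are not reported here. Coro2a (0.83, edgeR adjusted p = 0.000885), Hr (0.61, 0.00395) and Thrb (-1.07, 0.0161) also passed there with shNup153-2, only with the block. Of 7 other NCoR genes it called 3 higher and 1 lower, of 22 recruiters 1 and 5, and of 6 receptor-repressed genes 1 and 2. The share over all genes was 21.9%. The labels do not tie numbers to litters.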

Additional observations from a re-analysis of the deposited data

How the results depend on the processing

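For the 9 members, 459 of 486 values under other settings and 379 of 414 values with 1 library left out kept their direction and their side of the threshold. Members called by DESeq2 numbered 1 with shNup153-1 (Rcor3) and 1 between hairpins (Ncor1). On all lines as deposited the counts were also 1 (Rcor3) and 1 (Ncor1). With the length trend removed they were 1 with shNup153-1 (Ncor1), 1 between hairpins (Ncor1), 2 with silencing in shControl cultures (Rcor1 and Ncor1) and 3 in shNup153-2 cultures (Sin3b, Kdm1a and Rcor3). In that fit Rcor3 was 0.00 with shNup153-2 and 0.59 with silencing in shNup153-2 cultures, Ncor1 there 0.29, Rcor1 between hairpins -0.06, Rcor2 with silencing in shControl cultures 0.06 and Rcor3 in the interaction 0.17. It moved the median of all genes from -0.03 to -0.10 with basal shNup153-2, from 0.01 to 0.18 with silencing in shNup153-2 cultures and from 0.01 to 0.13 in the interaction. Genes up and down went from 1164 and 716 to 998 and 1008 with basal shNup153-2, from 408 and 243 to 501 and 468 between hairpins, and from 1964 and 2581 to 3104 and 1930 with silencing in shNup153-2 cultures.

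For basal libraries of the same number, deviations had an r of -0.58 and -0.65 for shNup153-1 with shControl, and 0.22 and -0.03 for shNup153-2. With 2 libraries per hairpin, the deviations from the group mean mirror each other, so these values cannot decide whether numbers pair the libraries. With the replicate block, genes called were 0 with shNup153-1, 0 between hairpins, 4161 in silenced cultures, 1252 with silencing in shNup153-2 cultures and 2 in the interaction, and members called were 1 with basal shNup153-2 (Tbl1xr1, 1.10, edgeR adjusted p = 0.0249), 1 in silenced cultures (Sin3a) and 0 with silencing in shNup153-2 cultures (Sin3b adjusted p = 0.0819, Kdm1a 0.119). In the blocked fit Rcor2 was at -0.15 with shNup153-2 and Tbl1xr1 at -0.01 with silencing in shControl cultures.

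Over all genes, DESeq2 called 3146, 3624, 2114 and 1845 in the 4 knockdown and hairpin comparisons (edgeR 1971, 1880, 651 and 654) and 283 in the interaction, where limma-voom called 1, no filter 3 and the fit of 5 groups 6 (edgeR 0). As deposited, all lines gave 7997 with shNup153-1 and 6665 between hairpins. Only the groups compared gave 1203 with shNup153-1, and with silencing 1255 in shControl and 7714 in shNup153-2 cultures (edgeR 2586 and 4545). With no filter, 1 member was called with silencing in shNup153-2 cultures, and Kdm1a just missed the threshold (edgeR adjusted p = 0.0505). Near 0, Rcor2 with silencing in shControl cultures was 0.00 with no filter and 0.04 in the fit of 5 groups, where Rcor3 in shNup153-2 cultures was 0.01, and Sin3a in the interaction was -0.01 there and -0.03 with limma-voom.

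With 1 library left out, genes called ranged from 356 to 2050 with shNup153-1, 15 to 2211 with basal shNup153-2, 0 to 500 between hairpins, 4 to 659 in silenced cultures, 1069 to 3426 and 841 to 4003 with silencing in shControl and shNup153-2 cultures and 0 to 12 in the interaction. Members called ranged from 0 to 1 with silencing in shControl cultures and 0 to 2 in shNup153-2 cultures. Directions that changed were of values not called. With shNup153-1 they were Rcor1 (-0.31 to 0.49) and Tbl1xr1 (-0.30 to 0.62), and with basal shNup153-2 Rcor2 (-0.30 to 0.36). Between hairpins they were Sap30 (-0.01 to 0.47), Rcor1 (-0.25 to 0.54) and Kdm1a (-0.44 to 0.11). In silenced cultures they were Sap30 (-0.20 to 0.04), Rcor1 (-0.09 to 0.12), Kdm1a (-0.17 to 0.04) and Tbl1xr1 (-0.09 to 0.19). With silencing they were Sap30 (-0.41 to 0.01), Rcor2 (-0.25 to 0.25) and Tbl1xr1 (-0.09 to 0.36) in shControl cultures and Rcor3 (-0.14 to 0.12) in shNup153-2 cultures, and Sin3a in the interaction (-0.14 to 0.12). The cause was not tested. Where leaving out 1 of 2 libraries left a group with 1, that library is assumed to vary like the remaining groups. Depth was not varied.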

Other observations

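Genes that these corepressors are known to repress were listed with the complexes. Of 5 genes repressed by NCoR-bound receptors and tested with shNup153-1, 1 rose and 0 fell, against 13.6% of all genes called. Of 6 tested with shNup153-2, 1 rose and 0 fell, against 9.55%. In both cases it was Hr (hairless), itself a corepressor of thyroid hormone and vitamin D receptors. Hr was at 9.20 to 16.7 CPM in basal shControl libraries, 84.4 and 63.9 with shNup153-1 and 54.1 and 53.2 with shNup153-2. It rose by 2.53 (SE 0.23, edgeR adjusted p = 0.00163) and by 2.05 (SE 0.24, edgeR adjusted p = 0.00506), comparisons that share their controls, and the second call was lost without shNup153-2 replicate 1 or 2 (0.073 and 0.0741). In shControl cultures Hr rose by 2.10 with silencing (SE 0.42, edgeR adjusted p = 0.00933). Of 6 genes of this list tested there, 2 rose and 0 fell, against 12.4% of all genes called. With silencing in shNup153-2 cultures 1 of 6 rose and 1 fell, against 21.7%, and Hr was not among them. Of genes with known RE1 elements, the DNA sites of REST, 3 of 18 rose and 0 fell with shNup153-1, against 13.6% of all genes called in either direction, and 4 of 19 rose and 1 fell with shNup153-2, against 9.55%. The list median with shNup153-1 was -0.21, opposite in sign to the called genes, beside -0.02 over all genes, and with shNup153-2 it was 0.05 beside -0.03. With silencing 1 of 19 rose and 4 fell in shControl cultures (12.4% of all genes called), and 1 rose and 5 fell in shNup153-2 cultures (21.7%). Grin1, the obligatory NMDA receptor subunit, rose by 1.18 (SE 0.16, edgeR adjusted p = 0.00438) and 1.12 (SE 0.17, edgeR adjusted p = 0.00862), and the second call was lost without shNup153-2 replicate 1 or 2 (0.128 and 0.122) and with the length trend removed (0.81, edgeR adjusted p = 0.0548). With shNup153-2 in silenced cultures 0 of 19 RE1 genes passed the edgeR test. An unadjusted p under 0.05 was found for 2 of them, beside 3745 of 18965 genes. With the replicate block 4 fell and 0 rose (Syt4, Tubb3, Gria2 and Vgf, from -1.01 to -0.36), against 21.9% of all genes in that fit. Several RE1 genes respond to neuronal activity, so the list is not specific to REST.

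Among 22 DNA-binding recruiters tested, 3 were called higher and 1 lower with shNup153-1, and 3 higher and 3 lower with shNup153-2, against 13.6% and 9.55% of all genes. With silencing 1 was called higher and 2 lower in shControl cultures (12.4% of all genes), and 2 higher and 6 lower in shNup153-2 cultures (21.7%). Thrb, a thyroid hormone receptor that recruits NCoR when unliganded, fell with silencing by 1.35 in shControl cultures (SE 0.24, edgeR adjusted p = 0.00458) and by 2.72 in shNup153-2 cultures (SE 0.28, edgeR adjusted p = 0.000314), and neither call was lost without any 1 library. In silenced cultures Rbpj, the Notch effector, fell with shNup153-2 by 0.88 (SE 0.14, edgeR adjusted p = 0.0305). Rbpj lost its call without shControl replicate 1 or 3 (0.143 and 0.0977) or shNup153-2 replicate 1, 2 or 3 (0.160, 0.0553 and 0.0965).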
